A study of Mus musculus with 24 samples.

Results

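The regions described here carried the histone mark H3K4me3 in KDM1A-knockdown leukemic splenocytes, were listed as unique to the knockdown, and lay far from any H3K4me3 shared with wild-type cells. They are called distant KD regions. They were chosen by the authors' call of a region as unique to the knockdown (KD region) and by a measured gap of over 5 kb to the nearest region common to both conditions. Autosomes 1 to 14 and 16 to 19 were used. This gave 1920 regions, or 14.7% (95% Wilson interval 14.1 to 15.3%) of the 13088 KD regions on these 18 autosomes. The 3 deposited lists hold 63425 regions in all. Of the 58479 regions on the 18 autosomes, 22.4% were listed as unique to the knockdown and 8.58% as unique to the wild type (WT regions). Since these calls chose the regions, nothing is read from those shares.

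Chromatin immunoprecipitation and sequencing of H3K4me3 was done on spleen cells of C57BL/6 mice with leukemia from the Eµ-TCL1A line, with KDM1A knocked down or left untreated (WT). In this line a TCL1A transgene is driven in B cells, and the mice develop a disease like chronic lymphocytic leukemia. Both conditions therefore carry the transgene. Each condition has 6 immunoprecipitated and 6 input libraries, from 3 biological replicates with 2 technical replicates each. The labels do not give the means of the knockdown, the ages or the sexes. No sort of the splenocytes is named, so other spleen cells may be included, and in bulk chromatin fewer marked cells and a weaker mark per cell cannot be told apart.

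H3K4me3 marks the starts of active genes, most of all those rich in CpG, while enhancers usually carry mono- and dimethylated H3K4. KDM1A (LSD1) is a demethylase of the mono- and dimethyl forms of H3K4 and does not act on the trimethylated form. It works with the corepressor RCOR1 (CoREST) and histone deacetylases, and in blood cells it is recruited to promoters and enhancers by repressors such as GFI1 and GFI1B. The regions were taken over 5 kb from shared marks to set apart sites of their own from the flanks of sites marked in both conditions.

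The lists give 1 score per region for the comparison of the conditions as a whole, with no value per library and no read depth. No difference below could be set against the spread between replicates, and none was tested. Intervals are 95% Wilson intervals for shares, and for differences of medians they combine the 95% binomial order-statistic intervals of both medians. They hold for counting error alone and assume independent regions, which neighbouring regions are not. Gene and promoter positions were not analysed here, because the gene table at hand is for another genome build.

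Distant KD regions were short. Their median length was 374 bp (quartiles 280 and 695 bp), and they ranged from 200 to 8184 bp. Of the 1920 regions, 591 (30.8%) were under 300 bp and 275 (14.3%, interval 12.8 to 15.96%) were at least 1000 bp long. Only 79 (4.11%) reached 2000 bp and 24 reached 3000 bp. Together they covered 1.17 Mb.

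They were longer and scored higher than the KD regions within 5 kb of a common region (adjacent KD regions). The gap of adjacent KD regions to a common region had a median of 0 bp (upper quartile 269 bp). Most adjacent KD regions therefore touched or overlapped a common region. Whether this bears on their length or score was not tested. The median length of the 11168 adjacent KD regions was 334 bp, and 8.40% of them (7.90 to 8.93%) were at least 1000 bp long. The median score was 6.30 (quartiles 4.72 and 9.85) for distant KD regions and 4.34 (3.80 and 5.24) for adjacent KD regions. A score of at least 10 was reached by 462 distant KD regions (24.1%, 22.2 to 26.0%), against 285 adjacent KD regions (2.55%, 2.28 to 2.86%). The order of the median scores and of the median lengths was the same on each of the 18 autosomes.

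Distant KD regions were shorter than the 1075 WT regions chosen by the same gap (distant WT regions). The median length was 374 bp for distant KD regions and 561 bp for distant WT regions, and it was lower for distant KD regions on each of the 18 autosomes. Lengths of at least 1000 bp were seen in 14.3% of distant KD regions and 26.3% (23.8 to 29.0%) of distant WT regions. Scores were closer. The median was 6.30 for distant KD regions and 6.93 for distant WT regions, lower for distant KD regions on 15 of 18 autosomes, and 24.1% of distant KD regions and 26.3% (23.8 to 29.0%) of distant WT regions scored at least 10. The difference in median score depended on the gap limit. Distant KD minus distant WT regions, it was -0.63 (interval -0.99 to -0.24) at 5 kb, -0.29 (-0.76 to 0.12) at 10 kb and 1.74 (0.70 to 2.63) at 50 kb, where the order was reversed.

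Within the distant KD regions, longer ones scored higher. The median score was 5.01 in the 591 regions under 300 bp and 5.82 in the 637 regions of 300 to 500 bp. It was 6.90 in 417 regions of 500 to 1000 bp, 10.5 in 196 regions of 1000 to 2000 bp and 17.3 (quartiles 10.7 and 21.2) in the 79 regions of 2000 bp or more. Length and score come from the same call, so this is a description of the list. The longest regions were also the most clustered, since 58.2% of those of 2000 bp or more had another distant KD region within 10 kb, against 33.3% of those under 300 bp. There was no steady rise between, with 38.9% at 300 to 500 bp, 37.2% at 500 to 1000 bp and 39.3% at 1000 to 2000 bp.

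**Figure D1:**
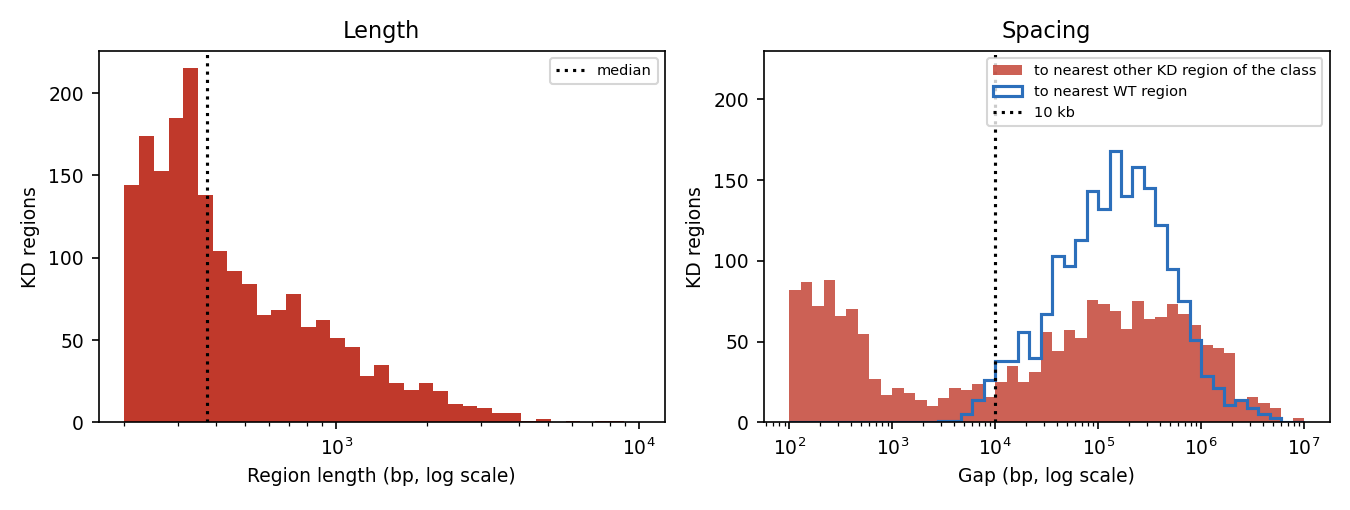
Left, lengths of the 1920 distant KD regions (bp, log scale), with the median of 374 bp as a dotted line. Right, gaps (bp, log scale) from each region to the nearest other distant KD region (filled) and to the nearest WT region (blue outline), with 10 kb as a dotted line. Gaps to the nearest other region form a group under 1 kb and a broad group above 10 kb, while gaps to WT regions have only the broad group.

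The gap to the nearest common region had a median of 17265 bp (quartiles 8748 and 45977 bp). Of the distant KD regions, 604 (31.5%) lay at 5 to 10 kb, 466 (24.3%) at 10 to 20 kb and 409 (21.3%) at 20 to 50 kb. A further 194 lay at 50 to 100 kb, 200 at 100 to 500 kb and 47 (2.45%) beyond 500 kb. Distant WT regions lay farther out, with a median gap of 41397 bp, and their median was the larger on each of the 18 autosomes. The gap to common regions was part of the choice, and both classes start at the same limit.

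Far more sequence lies at long than at short distances, so the counts were divided by the sequence available at each distance between the first and last common region of each autosome. The density of distant KD regions was lower in each class than in the class before it. It was 4.63 per Mb at 5 to 10 kb, 2.60 at 10 to 20 kb, 1.44 at 20 to 50 kb and 0.831 at 50 to 100 kb. It was 0.313 per Mb at 100 to 500 kb and 0.0838 beyond 500 kb. The density of distant WT regions stayed between 0.942 and 1.11 per Mb in the 4 classes up to 100 kb, and was 0.312 at 100 to 500 kb and 0.0642 beyond. Assembly gaps and sequence to which reads cannot be mapped were not subtracted from the available sequence.

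The mix of distant KD and distant WT regions therefore differed by distance. Distant KD regions outnumbered distant WT regions 4.91 to 1 at 5 to 10 kb and made up 83.1% (80.2 to 85.6%) of both together. For comparison, all KD regions of these autosomes outnumbered all WT regions 2.61 to 1. The ratio of distant KD to distant WT regions was near that at 10 to 20 kb (2.74 to 1). It was below it in each class beyond, at 0.843 to 1.31 to 1. The share of distant KD regions was 73.3% (69.7 to 76.6%) at 10 to 20 kb, 56.3% (52.7 to 59.9%) at 20 to 50 kb and 45.8% (41.1 to 50.5%) at 50 to 100 kb. It was 50.1% (45.2 to 55.0%) at 100 to 500 kb and 56.6% (45.9 to 66.8%) beyond 500 kb. On 17 of 18 autosomes the share was higher at 5 to 20 kb, where it ranged from 61.0 to 92.9%, than beyond 50 kb, where it ranged from 24.4 to 69.6%. Among regions scoring at least 10 the share was 75.9% (67.1 to 83.0%) at 5 to 10 kb, from 82 KD and 26 WT regions, and 45.6% (37.1 to 54.3%) at 50 to 100 kb, from 57 KD and 68 WT regions. In those regions it was 63.3% (56.0 to 70.0%) at 100 to 500 kb.

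The limit of 5 kb cut a continuous slope. Over the same autosomes, KD regions of either class numbered 17.8 per Mb of available sequence at 1 to 2 kb from a common region, 8.15 at 2 to 5 kb and 4.63 at 5 to 10 kb. WT regions numbered 2.05, 1.41 and 0.942 per Mb. The 3 regions just inside the limit had gaps of 5004, 5006 and 5013 bp and scores of 5.002, 5.85 and 3.62. The 3 KD regions just outside had gaps of 5000, 5000 and 4999 bp and scores of 4.55, 4.44 and 8.68.

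Regions farther out scored higher. The median score of distant KD regions was 5.69 at 5 to 10 kb, 5.81 at 10 to 20 kb, 6.39 at 20 to 50 kb and 6.95 at 50 to 100 kb. It was 11.3 at 100 to 500 kb and 11.5 beyond 500 kb. A score of at least 10 was reached by 13.6% of those at 5 to 10 kb and by 59.6% of the 47 beyond 500 kb. On each of the 18 autosomes the median score was higher beyond 100 kb than at 5 to 10 kb. The median length was 349 bp in the nearest class and 581 bp in the farthest. Distant WT regions had median scores of 6.45 at 5 to 10 kb, 7.78 at 100 to 500 kb and 9.85 beyond 500 kb. Of the 247 distant KD regions over 100 kb from a common region 140 scored at least 10, against 83 of the 235 distant WT regions there.

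**Figure D2:**
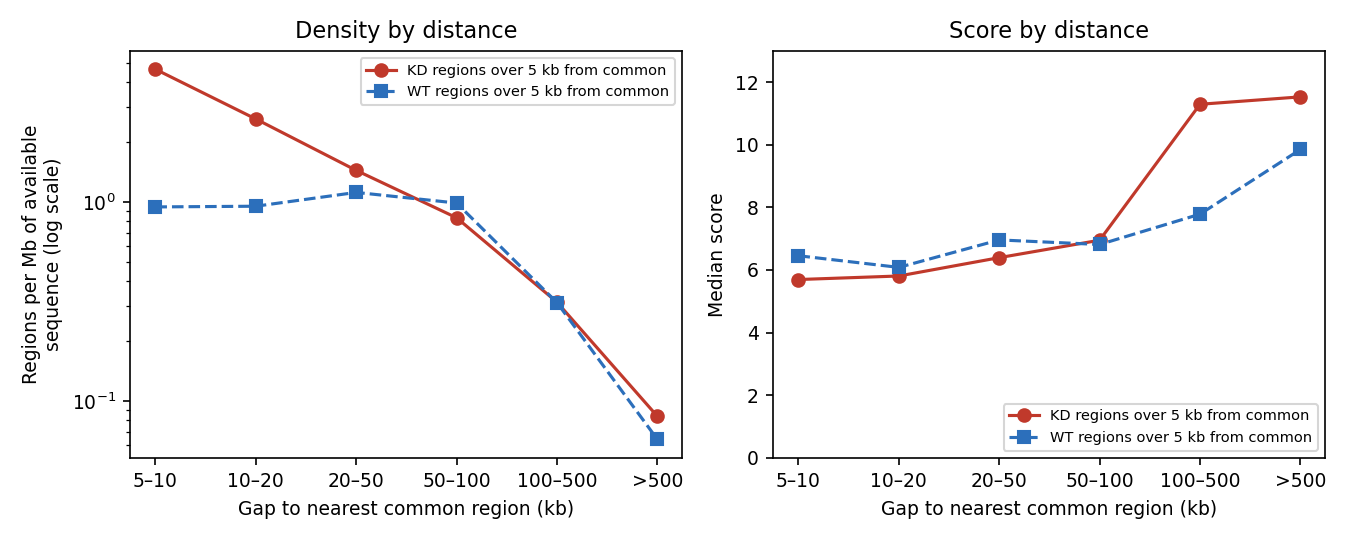
Distant KD regions (red circles) and distant WT regions (blue squares) by gap to the nearest common region (kb). Left, regions per Mb of available sequence (log scale): KD density is 4.63 at 5 to 10 kb and 0.0838 beyond 500 kb, while WT density is near 1 up to 100 kb. Right, median score: the KD median is 5.69 in the nearest and 11.5 in the farthest class, and it lies above the WT median in the classes beyond 50 kb.

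Many distant KD regions had a close neighbour of the same kind. Of the 1920 regions, 723 (37.7%, 35.5 to 39.8%) had another within 10 kb, and 564 (29.4%) had one within 1 kb. The 159 regions whose nearest such neighbour lay at 1 to 10 kb made up 8.28%. At the other end, 796 (41.5%) had none within 100 kb and 192 (10%) had none within 1000 kb. The gap to the nearest other distant KD region had a median of 51237 bp, and 401 regions (20.9%) had theirs at 10 to 100 kb. Among distant WT regions 31.2% (28.5 to 34.0%) had another within 10 kb, a lower share than for distant KD regions on 14 of 18 autosomes. These shares are not corrected for number, and there were only 1075 distant WT regions. Chromosome 1 had 131 distant KD and 121 distant WT regions, and there the clustered share was 42.0% for KD and 48.8% for WT. By distance, the KD share was the lower at 20 to 50 kb (31.3% against 35.0%) and the higher in every other class. Whether distant KD regions cluster more than their number would give was not tested.

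The neighbours formed 307 clusters beside 1197 lone regions. There were 234 pairs, 53 clusters of 3, 16 of 4, 2 of 6, 1 of 9 and 1 of 11. The clusters had a median span of 2066 bp (quartiles 1190 and 4165 bp), of which the regions covered a median of 71.9%. Of the 416 gaps inside clusters 308 (74.0%) were at most 1 kb, with a median of 361 bp over all of them. The smallest was 101 bp, no gap of 100 bp or less was found in the class, and no KD or WT region was under 200 bp. Joining regions within 1 kb gave 1612 stretches with a median length of 433 bp, 47 of them at least 3000 bp long. Of these stretches 12.4% had another within 10 kb, so most of the clustering was at gaps under 1 kb. Whether a pair at such a gap is a single marked stretch listed in pieces was not tested, and regions of a cluster are not independent.

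Clustered and lone regions differed in score more than in length. The median score was 7.11 (quartiles 5.14 and 12.0) for the 723 clustered regions and 5.90 (4.54 and 9.13) for the 1197 lone regions. The median length was 393 bp for clustered and 366 bp for lone regions. A score of at least 10 was reached by 31.0% (27.7 to 34.4%) of clustered and 19.9% (17.7 to 22.2%) of lone regions.

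The largest cluster held 11 regions on chromosome 14 between positions 118001547 and 118053682, a span of 52136 bp of which 29.6% was covered. It contained the longest distant KD region, 8184 bp at chr14:118008944-118017127 with a score of 48.5. The regions on either side of that one scored 34.8 (1170 bp) and 24.1 (2106 bp), and the other 8 scored 5.38 to 14.3. The nearest common region was 138072 bp and the nearest WT region 414841 bp away. It shared its interval between neighbouring common regions, 461.8 kb long, with 2 more distant KD regions and no distant WT region.

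On chromosome 2, 6 regions between 52869801 and 52881815 covered 42.0% of 12015 bp. Their scores ran from 13.3 to 26.5, and the longest was 2712 bp. This cluster lay in the interval with the most distant KD regions of all, 16 regions in 8 clusters or lone sites over 232.4 kb. The 16 scored 3.72 to 26.5 with a median of 14.4, and no distant WT region lay among them.

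The other clusters were nearer to shared marks. The cluster of 9 on chromosome 19, between 7279107 and 7295132, began 5113 bp from a common region, had 20 common regions within 100 kb and scored low, from 3.77 to 7.56. The cluster of 6 on chromosome 7, between 132373913 and 132378711, lay 7122 bp from a common region, scored 5.49 to 13.4 and was dense, with inner gaps of 204 to 625 bp. The cluster on chromosome 6, between 68079809 and 68083357, had the highest summed score of the 16 clusters of 4, with regions scoring 14.97 to 28.8 with all inner gaps under 500 bp. The chromosome 19 cluster had its nearest WT region 95657 bp away, and the other clusters of these 5 had none within 100 kb. Such a lack was common, since only 742 (38.6%) of the 1920 distant KD regions had a WT region within 100 kb.

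**Figure D3:**
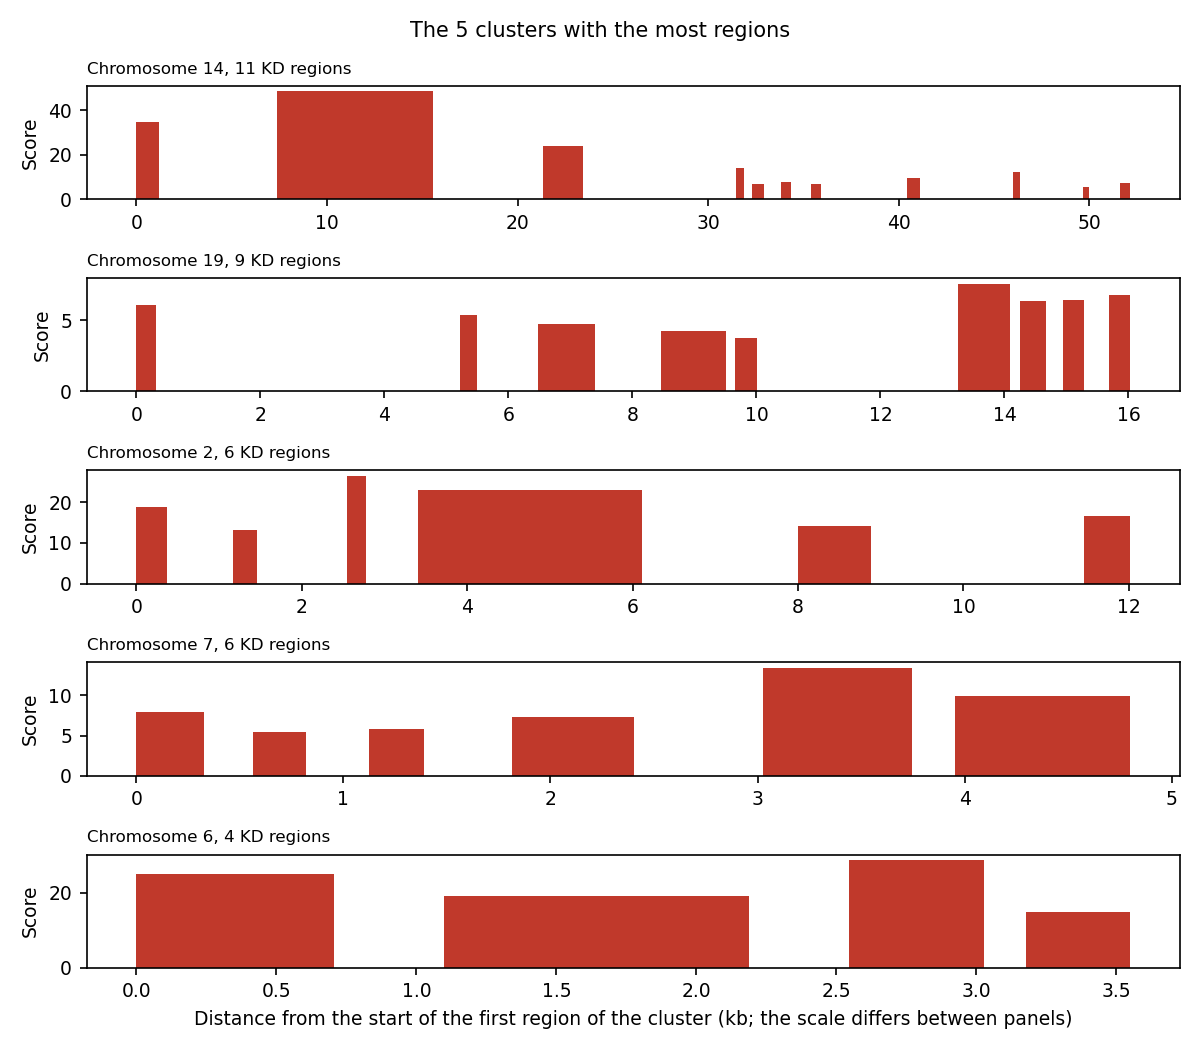
The 5 clusters with the most distant KD regions, from 11 regions on chromosome 14 to 4 on chromosome 6, which was taken from 16 clusters of 4 for the highest summed score. Each bar is a region, drawn to scale at its distance (kb) from the start of the cluster, and its height is its score. On chromosome 14 a region of 8184 bp with a score of 48.5 stands among shorter ones, and the 9 regions on chromosome 19 all score at most 7.56.

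Of all distant KD regions, the 10 that scored highest lay on 7 autosomes. The highest, 85.9, belonged to a lone region of 1714 bp at chr12:113536580-113538293, 88722 bp from a common and 86753 bp from a WT region. It lies near the distal end of chromosome 12, which bears the immunoglobulin heavy-chain locus, and was not matched to that locus. The next was a lone region of only 508 bp at chr1:136635439-136635946, with a score of 51.2 and a common region 11038 bp away. The chromosome 14 region described above was the third.

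Several of the highest were long and remote. A region of 4405 bp at chr1:77488613-77493017 (score 46.3) lay 677525 bp from a common region. One of 4737 bp at chr6:55312741-55317477 (40.8) lay 278473 bp away, and one of 3052 bp at chr5:91665456-91668507 (38.2) lay 439237 bp away. A region of 3495 bp at chr7:118591903-118595397 scored 39.8 and had a second distant KD region 165 bp beside it. The last 3 of the 10 were chr10:41828804-41830264 (38.8), chr1:91072459-91073362 (38.1) and chr14:62902235-62903306 (37.9). Of the 10 regions, 7 were lone, against 62.3% of all distant KD regions, and 4 of these 7 had another distant KD region at 10 to 50 kb. In the whole class of 1920, 723 regions had another within 10 kb and 956 had one within 50 kb.

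Length and score did not always go together at single sites. The second longest region, 7192 bp at chr4:140536748-140543939, scored 11.2 and lay 8856 bp from a common region. The third, 6166 bp at chr8:129082209-129088374, scored 16.4 and lay 243446 bp from one. A region of 4757 bp at chr2:103787514-103792270 scored 18.03 at a gap of 6207 bp.

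The regions farthest from any common region were a trio on chromosome 5 between 57872510 and 57876011, over 3613 kb away. They were 235, 341 and 629 bp long and scored 5.64, 4.20 and 10.6. Next came a lone region of 336 bp at chr12:46865179-46865514 with a gap of 2534681 bp and a score of 5.42. The fifth was a lone region of 1197 bp at chr6:103311279-103312475 with a gap of 2497892 bp and a score of 16.6.

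Few distant KD regions had a WT region nearby. The median gap from a distant KD region to the nearest WT region of any kind was 147639 bp (quartiles 59086 and 329140 bp). The smallest of these 1920 gaps was 2842 bp, 2 regions had a WT region within 5 kb, and 47 (2.45%, 1.85 to 3.24%) had one within 10 kb. The same held for distant WT regions and their gaps to KD regions, but less so for adjacent KD regions. Of the 1075 distant WT regions, 8 (0.744%, 0.378 to 1.46%) had a KD region of any kind within 10 kb. Their median gap to a KD region was 181220 bp. Adjacent KD regions had a median gap of 102435 bp to a WT region, and the smallest was 81 bp. The 10th percentile of this gap was 8165 bp for adjacent and 23323 bp for distant KD regions. At least 10% of adjacent KD regions thus had a WT region within 10 kb, against 2.45% of distant KD regions. The choice of distant KD regions bears on these gaps, because their nearest WT region was itself within 5 kb of a common region in 1632 of 1920 cases (85%). The gap to the nearest distant WT region had a median of 834948 bp.

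In the 47 cases within 10 kb, which lay on 14 autosomes, the WT region was within 5 kb of a common region in 42. These 47 distant KD regions had a median score of 5.27. The closest approach was on chromosome 3, where a KD region of 1092 bp at 151967229 to 151968320 (score 4.10) lay 2842 bp from a WT region of 455 bp at 151971163 to 151971617 (8.25). On chromosome 6, a KD region at 38898012 to 38898394 (14.9) lay 4544 bp from a WT region at 38902939 to 38903235 (11.6). On chromosome 13, a KD region at 100730806 to 100731158 (7.34) lay 5221 bp from a WT region at 100724828 to 100725584 (4.82).

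The nearest listed region of any kind was another distant KD region for 841 (43.8%) of the distant KD regions, a common region for 803 (41.8%), an adjacent KD region for 237 (12.3%) and a WT region for 39 (2.03%). An adjacent KD region lay within 1 kb of 34 (1.77%) and within 10 kb of 322 (16.8%), counts that the limit of 5 kb bears on. The nearest common regions were 1402 distinct ones, with a median length of 969 bp, against 873 bp over all common regions of these autosomes.

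The 18 autosomes had 15086 intervals between neighbouring common regions that were long enough to hold a region over 5 kb from both ends. Distant KD regions lay in 1330 of them (8.82%) and distant WT regions in 749 (4.96%). Both lay in 79 intervals, which were 5.94% of those with a distant KD region and 10.5% of those with a distant WT region. These pooled shares mix intervals of different size, and longer ones held either kind more often. Of the 5231 intervals of 20 to 50 kb, 396 (7.57%) held a distant KD region, 87 (1.66%) a distant WT region and 0 both. Whether 0 is fewer than these separate rates would give was not tested. A distant WT region lay in 2.32% of intervals of 50 to 100 kb with a distant KD region, against 4.98% of all intervals of that size. The shares were 11.8% against 13.98% at 100 to 500 kb and 17.0% against 21.4% over 500 kb. Of the 812 intervals over 500 kb, 176 (21.7%) held a distant KD region. In the 3797 intervals of 10 to 20 kb 100 held a distant KD region and 6 a distant WT region.

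Distant KD regions were found on every one of the 18 autosomes, from 61 on chromosome 16 to 161 on chromosome 2. Per Mb of sequence over 5 kb from common regions, the density was 1.75 on chromosome 19 and 1.47 on chromosome 11, and 0.677 on chromosome 12 and 0.679 on chromosome 3, with a median of 0.903. Distant WT regions ranged from 0.331 on chromosome 16 to 0.777 on chromosome 7, with a median of 0.512. Distant KD regions outnumbered distant WT regions on each of the 18 autosomes, 3.82 to 1 on chromosome 19 and 1.08 to 1 on chromosome 1. Over these autosomes the ratio was 1.79 to 1, smaller than the 2.61 to 1 of all KD to all WT regions. Accordingly 14.7% of KD regions (14.1 to 15.3%) and 21.4% of WT regions (20.3 to 22.6%) were distant. They made up 23.4% of the KD regions of chromosome 6 and 10.5% of those of chromosome 11. Their median length varied little, between 344 and 427 bp, and their median score lay between 5.64 and 7.17. The clustered share ran from 27.9% on chromosome 16 to 44.9% on chromosome 4.

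**Figure D4:**
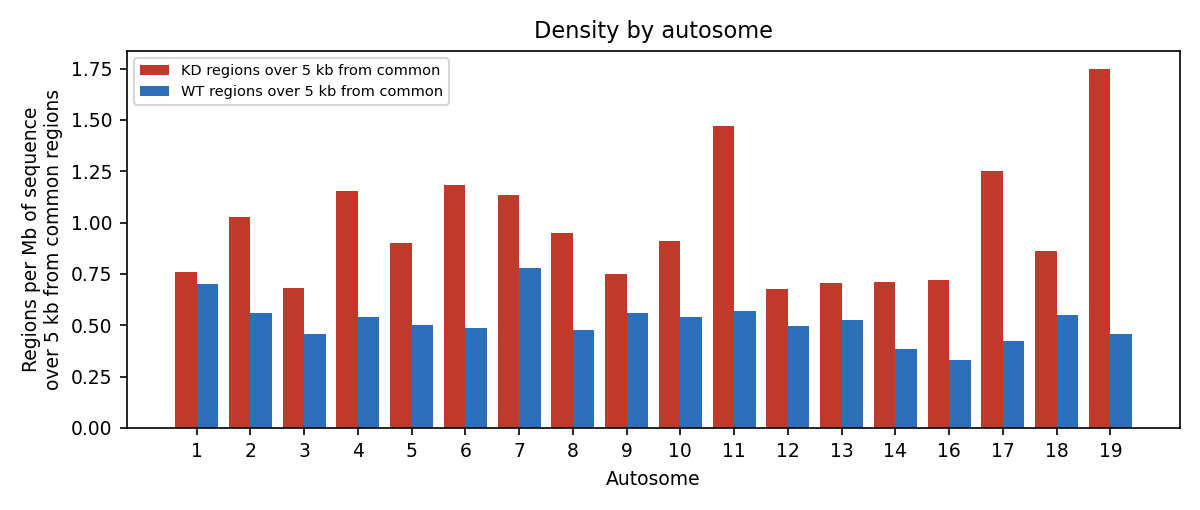
Distant KD regions (red, left bar) and distant WT regions (blue, right bar) per Mb of sequence over 5 kb from common regions, for the 18 autosomes used. The red bar is the higher on each autosome, from 0.677 on chromosome 12 to 1.75 on chromosome 19, while the blue bars lie between 0.331 and 0.777. The KD list as a whole is 2.61 times as long as the WT list on these autosomes.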

How the data were processed

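The authors deposited 3 region lists: unique to the knockdown, unique to the wild type, and common, per the file headers. Each region has a deposited score that the headers leave undefined. All KD and WT scores exceeded 3, and no common score reached it. The submitters' processing notes name Bowtie2 (2.2.9), SAMtools (1.6), MACS2 (2.2.6) and the build GRCm39. The sources used here do not give their order or settings, or whether replicates were pooled.

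The unaltered lists were read in Python 3.11.15 using scipy 1.17.1, numpy 2.4.6 and pandas 2.3.3. Figures used matplotlib 3.10.9. A gap was the number of bases between 2 regions (later start minus earlier end, with starts counted from 0 as deposited). Clusters joined regions at gaps of up to 10 kb. Available sequence was counted per base between the first and last common region of each of the 18 autosomes, and 3 distant KD regions lay outside these limits. The code was tested on simulated regions. Coordinates are 1-based on GRCm39. The regions, classes and distances were chosen with earlier results of these data known. Named regions were the 10 highest scores, 5 longest, 5 clusters with the most regions (ties by summed score), 5 farthest from common regions, 3 nearest to WT regions and 3 on either side of the limit. Gene lists, cell type markers, gene starts and base composition were not analysed, since the gene table at hand is for GRCm38.p6. The alternatives were other limits on gap, score and length, other autosomes, joining within 1 kb and other cluster distances. Depth is unknown, since the lists hold no counts.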

Additional observations from a re-analysis of the deposited data

How the results depend on the processing

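Of 78 alternative values 31 stayed within the interval of the reported value (for a number, within 1.5 times), 46 moved and 1 turned round, and the cause was not tested beyond what each limit removes by construction. A gap limit of 50 kb turned the difference in median score between distant KD and distant WT regions to 1.74 (-0.29 at 10 kb, with an interval that spans 0) and raised the difference in clustered share to 14.6 percentage points. With that limit 441 regions were left, with a median length of 453 bp, a clustered share of 45.4%, median gaps of 28060 bp to each other and 378790 bp to a WT region, 0.227% within 10 kb of a WT region and a median score of 9.25. With limits of 2 kb and 10 kb, the median length was 360 and 391.5 bp, the gap to each other 28990 and 74138 bp, the gap to a WT region 135349 and 169650 bp, the share near a WT region 4.43% and 0.380%, and the score 5.95 and 6.73, and with 2 kb the clustered share was 40.1%. A score of at least 5 gave a median length of 459 bp, median gaps of 75686 bp to each other and 162418 bp to a WT region and a median score of 8.04. A score of at least 10 left 462 regions, with a length of 665 bp, a clustered share of 33.3%, gaps of 334075 bp to each other and 212066 bp to a WT region, 1.30% near a WT region and a score of 14.3. A length of at least 500 bp left 692 regions, with a length of 869.5 bp, a clustered share of 22.0%, gaps of 408163 bp to each other and 170851 bp to a WT region, 1.73% near a WT region and a score of 8.53. Joining within 1 kb gave a length of 433 bp, a clustered share of 12.4% and a gap to each other of 149518 bp. Distances of 5, 20 and 50 kb in place of 10 kb gave clustered shares of 34.7%, 41.4% and 49.8% and shares near a WT region of 0.104%, 8.18% and 21.8%. Adding chromosome 15 or leaving out chromosome 2 moved no value. No paired analysis was possible because no deposited column gives a single library, and leaving out a replicate was likewise not possible. Alternatives on gene starts and base composition were not run. What depth limits is not known.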
